A study of Mus musculus with 8 samples.

Results

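The 36 genes examined here form a list of cell cycle and proliferation genes, which comprises cyclins, cyclin-dependent kinases (CDKs), replication factors, enzymes of nucleotide synthesis and mitotic regulators. The members were found by gene symbol, and each of the 36 had 1 probe set among the 22206 probe sets of the array. The samples were GAS (gastrocnemius) muscles of male C57/Bl6j mice, which were injected at about 10 weeks of age and were 22 weeks old at collection, 12 weeks later. One leg received AAV sh-RNA MYTHO, an adeno-associated virus in which a U6 promoter drives a short hairpin RNA against *Mytho* (MYTHO-KD, 4 muscles), and the contralateral leg received AAV sh-RNA scrmb, the same kind of vector with a scramble hairpin (scramble, 4 muscles). Both groups therefore carried AAV of serotype 1 and a hairpin, and neither was an uninjected muscle. The U6 promoter is not restricted to muscle fibres, and each sample was whole muscle tissue with fibres and all resident cells. MYTHO is a protein that the study links to autophagy.

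Adult muscle fibres have left the cell cycle, so transcripts of dividing cells in this tissue come mainly from satellite cells, fibroblasts, endothelial cells and immune cells. In a dividing cell, D-type cyclins with CDK4 and CDK6 release E2F factors from retinoblastoma proteins in the first gap phase (G1), and cyclin E with CDK2 then opens the way to DNA replication. E2F factors drive genes of replication, and the MuvB complex, with B-MYB and FOXM1, later drives genes of the second gap phase (G2) and mitosis. D cyclins and CDK4 are also made in tissues with few dividing cells, whereas many mitotic genes, though not all, are close to silent outside dividing cells.

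Promoters of the members are shown to set replication genes beside mitotic genes. RefSeq promoter windows (GRCm38.p6, 250 bases before to 50 after the transcription start) were at hand for 29 of the 36 members. In the windows below, letters in capitals mark matches, on either strand, to an E2F motif (TTTCCCGC, TTTCGCGC, TTTGCCGC or TTTGGCGC), to the cell cycle homology region motif (CHR, TTTGAA) or to the CCAAT box (CCAAT), and neighbouring E2F matches may overlap each other. All of the windows shown lie on the minus strand and are written 5′ to 3′: *Mki67* at chr7:135716330-135716629, *Ccnb2* at chr9:70421505-70421804, *Mcm6* at chr1:128359656-128359955, *Mcm2* at chr6:88898731-88899030 and *Cdk2* at chr10:128705002-128705301.
Mki67: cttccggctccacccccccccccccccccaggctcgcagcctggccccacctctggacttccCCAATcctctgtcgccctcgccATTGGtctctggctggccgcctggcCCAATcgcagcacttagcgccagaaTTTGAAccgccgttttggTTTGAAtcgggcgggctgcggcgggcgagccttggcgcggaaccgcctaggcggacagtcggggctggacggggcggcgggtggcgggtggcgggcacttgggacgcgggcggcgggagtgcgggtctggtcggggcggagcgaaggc
Ccnb2: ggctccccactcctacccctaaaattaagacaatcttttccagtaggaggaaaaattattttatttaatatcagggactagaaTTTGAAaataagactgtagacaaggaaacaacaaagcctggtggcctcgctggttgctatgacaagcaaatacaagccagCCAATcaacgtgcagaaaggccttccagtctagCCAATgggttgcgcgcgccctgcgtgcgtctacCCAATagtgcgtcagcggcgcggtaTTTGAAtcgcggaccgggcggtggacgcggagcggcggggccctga
Mcm6: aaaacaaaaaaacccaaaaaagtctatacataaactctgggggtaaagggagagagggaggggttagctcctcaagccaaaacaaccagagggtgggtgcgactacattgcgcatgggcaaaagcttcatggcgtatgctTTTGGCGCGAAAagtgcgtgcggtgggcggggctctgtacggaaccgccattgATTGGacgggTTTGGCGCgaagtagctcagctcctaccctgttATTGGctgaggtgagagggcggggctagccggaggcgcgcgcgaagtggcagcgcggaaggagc
Mcm2: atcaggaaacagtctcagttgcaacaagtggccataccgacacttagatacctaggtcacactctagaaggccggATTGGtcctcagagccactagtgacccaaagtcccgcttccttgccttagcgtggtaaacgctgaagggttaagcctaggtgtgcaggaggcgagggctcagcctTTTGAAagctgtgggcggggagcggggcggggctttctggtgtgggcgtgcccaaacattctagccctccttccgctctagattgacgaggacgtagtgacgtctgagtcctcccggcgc
Cdk2: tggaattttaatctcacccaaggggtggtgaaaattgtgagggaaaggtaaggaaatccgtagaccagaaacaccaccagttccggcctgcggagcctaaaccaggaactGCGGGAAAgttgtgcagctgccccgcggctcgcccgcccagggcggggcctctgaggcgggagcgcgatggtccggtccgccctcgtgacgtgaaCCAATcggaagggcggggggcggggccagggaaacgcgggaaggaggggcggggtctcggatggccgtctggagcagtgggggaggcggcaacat

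A CHR match was present in 8 of the 11 mitotic promoters (72.7%), and in 2 of the 8 replication promoters, those of *Mcm2* and *Cdc45*, against 20.2% of all 27025 genes with a promoter window. An E2F match was present in 5 of the 8 promoters of replication licensing and fork genes (62.5%), against 2.60% of all genes. It was also present in 1 of the 11 mitotic promoters, that of *Cdk1*, and in 1 of the 6 G1 promoters, that of *Cdk2*. None of the 4 promoters of nucleotide synthesis genes held an E2F or a CHR match. The CCAAT box, a common element bound by NF-Y, was found in 10 of 11 mitotic and 7 of 8 replication promoters, against 41.1% of all genes. In the windows printed above, *Mki67* and *Ccnb2* each held 2 CHR matches and 3 CCAAT boxes, *Mcm6* held 3 E2F matches, *Mcm2* held 1 CHR match and no E2F match, and *Cdk2* held 1 E2F match. The windows of *Cdk4*, *Cdk6*, *Ccne1*, *E2f1*, *Tyms*, *Tk1* and *Birc5* held none of the 3 motifs. A match is a string of letters and not a measured binding site.

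**Figure D1:**
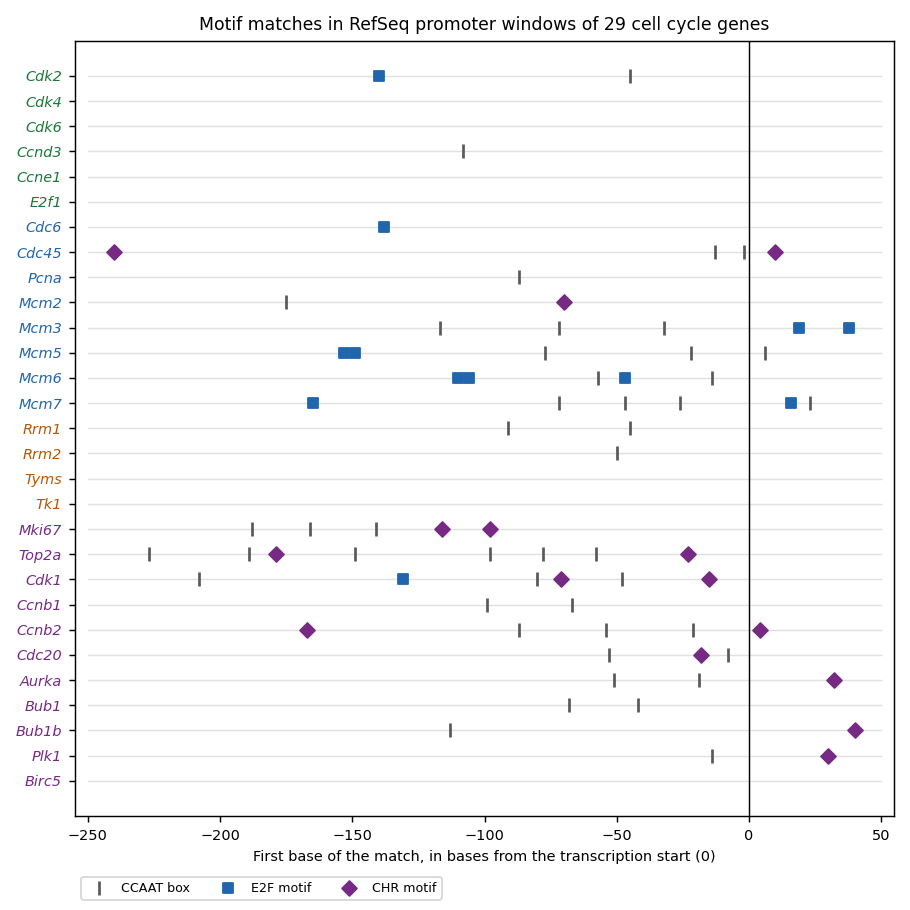
Position of motif matches (x axis, bases from the transcription start) in the RefSeq promoter windows of 29 members (rows, gene names coloured by role: green, G1 genes; blue, replication; orange, nucleotide synthesis; purple, G2 and mitosis). CHR matches (purple diamonds) fall in 8 of 11 mitotic promoters and E2F matches (blue squares) in 5 of 8 replication promoters, while the CCAAT box (ticks) is found in both.

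Expression was measured on Clariom S Mouse arrays, and the deposited table gives the authors' average (log2 of normalized signal) and SD of each group, with no values of single muscles, so that an average ± SD over 4 arrays stands here for the values in each sample. The knockdown was seen at the target: the average of *D230025D16Rik*, the earlier symbol of *Mytho*, was 7.71 ± 0.66 in MYTHO-KD and 10.02 ± 0.37 in scramble (log2 difference -2.31, standard error 0.304, adjusted p = 0.0138, limma). The averages of all 8 muscle fibre markers were 17.58 or more in both groups, and those of *Acta1* and *Myh4* stood at the top of the scale with an SD of 0.00. A difference in *Acta1* or *Myh4* could therefore not be seen. None of the 8 markers was called, and the largest differences among them were those of *Mb*, myoglobin (0.93, adjusted p = 0.0754, limma), and *Myh1*, a fast myosin (0.59, adjusted p = 0.230, limma). Differences were tested with limma's moderated test computed from averages and SDs. A gene was called where it changed at least 2-fold and its unadjusted p was under 0.05, the thresholds of the study. The test was not the study's own, so its calls can differ from those of the study. P-values adjusted over all 22206 probe sets are given beside. Signals of different probe sets are not on a common scale, so levels are compared between groups for 1 gene at a time. In whole tissue, fewer cells of a type and less RNA per cell cannot be told apart.

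None of the 36 cell cycle genes was called in either direction after 12 weeks of MYTHO-KD, where 0.86% of all probe sets were called higher and 0.257% lower. The log2 differences (MYTHO-KD minus scramble) ran from -0.60 (*Bub1*) to 0.54 (*Cdk4*), with a median of -0.06 against -0.01 over all probe sets. By sign alone, 14 members were higher, 21 lower and 1 (*Birc5*) equal, where 46.9% of all probe sets were higher and 51.4% lower. With limma's moderated test 6 members had an unadjusted p under 0.05, 4 of them higher and 2 lower. Of all probe sets, 6.48% were higher and 5.52% lower at the same limit. No member had an adjusted p under 0.05 (smallest 0.311, *Mcm2*, limma), a limit passed by 0.275% of all probe sets. For 33 of the 36 members the 95% interval of the difference lay wholly inside 2-fold in both directions, a share near the 89.2% of all probe sets, and the count was 28 without moderation and 26 with unequal variances. The exceptions were *Cdk4* on the higher side and *Bub1* and *Tyms* on the lower side.

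**Figure D2:**
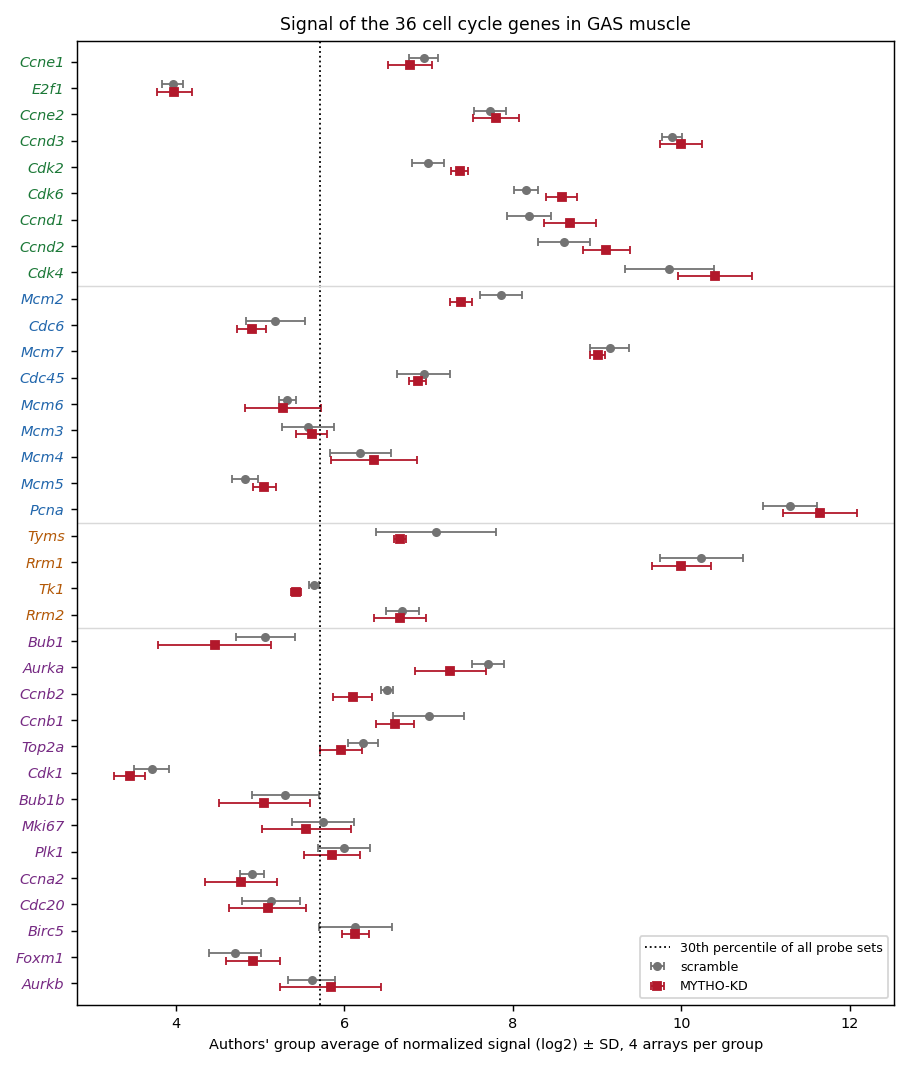
The authors' group averages of normalized signal (log2, x axis) with the SD over 4 arrays (bars) for the 36 members in scramble (grey circles) and MYTHO-KD (red squares), ordered by role and then by difference, with gene names coloured by role (green, G1 genes; blue, replication; orange, nucleotide synthesis; purple, G2 and mitosis). The averages of a gene lie within 0.60 (log2) of each other in every row, and 7 of the 14 mitotic genes have a mean left of the dotted line, the 30th percentile of all probe sets (5.715).

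The genes that act in G1 were the group with most differences above 0: 8 of the 9 had a higher average in MYTHO-KD, with a median log2 difference of 0.38, and 4 of them had an unadjusted p under 0.05. Among all probe sets, 46.9% were higher, and 6.48% were higher at that limit. *Ccnd1* (cyclin D1, chr7:144929931-144939925 on mm10) had an average of 8.68 ± 0.31 in MYTHO-KD and 8.19 ± 0.26 in scramble, a log2 difference of 0.49 (95% interval 0.05 to 0.93, adjusted p = 0.361, limma). Its probe set also names the microRNA gene *Mir3962*. *Ccnd2* (cyclin D2, chr6:127125166-127151048) was higher by nearly the same amount, 9.11 ± 0.28 against 8.61 ± 0.31, with a log2 difference of 0.50 (95% interval 0.05 to 0.95, adjusted p = 0.357, limma). The third D cyclin, *Ccnd3*, the form usually linked to differentiating muscle, had averages of 10.00 ± 0.25 and 9.89 ± 0.12. Its difference of 0.11 was smaller than the SD in MYTHO-KD (95% interval -0.27 to 0.49, adjusted p = 0.865, limma). Without moderation of the variances neither *Ccnd1* nor *Ccnd2* met an unadjusted p of 0.05. Whether *Ccnd3* differed from *Ccnd1* and *Ccnd2* in its response was not tested.

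Both kinases that pair with D cyclins were also higher by their averages. *Cdk6* (chr5:3343893-3525260) stood at 8.58 ± 0.18 in MYTHO-KD and 8.16 ± 0.14 in scramble, and its log2 difference of 0.42, a 1.34-fold change, was larger than the SD of either group (95% interval 0.06 to 0.78, adjusted p = 0.329, limma). *Cdk4* showed the highest difference of the 36, 10.40 ± 0.44 against 9.86 ± 0.53, but with SDs about as large as the difference of 0.54 its interval ran from -0.08 to 1.16 (adjusted p = 0.480, limma). *Cdk2* (chr10:128697939-128705051), the partner of cyclins E and A, was at 7.37 ± 0.10 and 6.99 ± 0.19 (log2 difference 0.38, 95% interval 0.03 to 0.73, adjusted p = 0.375, limma). Of its cyclins, *Ccne1* was at 6.78 ± 0.26 and 6.94 ± 0.17 (-0.16, 95% interval -0.55 to 0.23), and *Ccne2* at 7.80 ± 0.27 and 7.73 ± 0.19 (0.07, 95% interval -0.33 to 0.47). *E2f1*, which codes for an activating E2F factor, differed by 0.02 at a signal near the floor of the scale (3.98 ± 0.21 and 3.96 ± 0.12), and the software flagged it as expressed in MYTHO-KD only.

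Genes of replication licensing and of the replication fork were split, with 4 of 9 higher and 5 lower and a median log2 difference of -0.05. The MCM proteins form the hexameric helicase that is loaded at origins, and of their 6 genes 3 had a higher and 3 a lower average. *Mcm2* (chr6:88883474-88898780) was lower in MYTHO-KD, 7.39 ± 0.13 against 7.86 ± 0.25, with a log2 difference of -0.47 and the lowest p of all members (95% interval -0.85 to -0.09, adjusted p = 0.311, limma). *Mcm5* was on the other side of 0, 5.05 ± 0.14 against 4.82 ± 0.16 (log2 difference 0.23, 95% interval -0.12 to 0.58). The other 4 subunits, *Mcm3*, *Mcm4*, *Mcm6* and *Mcm7*, lay between -0.14 (*Mcm7*) and 0.16 (*Mcm4*). The probe set of *Mcm7* also names the microRNA genes *Mir93* and *Mir25*. *Pcna*, the sliding clamp of DNA polymerases, which also serves in DNA repair, had averages of 11.65 ± 0.44 and 11.29 ± 0.32 and a log2 difference of 0.36 (95% interval -0.16 to 0.88, adjusted p = 0.607, limma). The loading factor *Cdc6* differed by -0.28 and the helicase cofactor *Cdc45* by -0.07. All 9 intervals of this group lay inside 2-fold, as did 89.2% of those of all probe sets.

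The 4 genes of nucleotide synthesis all had lower averages in MYTHO-KD, between -0.43 and -0.03 with a median of -0.225, and none had an unadjusted p under 0.05. By sign, 51.4% of all probe sets were lower. *Tyms*, thymidylate synthase, stood apart in its spread: its SD was 0.07 in MYTHO-KD and 0.71 in scramble around averages of 6.66 and 7.09. *Tk1*, the thymidine kinase of S phase, had an SD of 0.06 in both groups and averages of 5.43 and 5.64. Its difference of -0.21 exceeded these SDs, but the moderated test, which draws such low variances toward the typical one, gave an adjusted p of 0.620 (limma). The ribonucleotide reductase subunits *Rrm1* and *Rrm2* differed by -0.24 (SDs 0.35 and 0.49) and by -0.03 (SDs 0.31 and 0.20).

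Of the 14 genes of G2 and mitosis, 11 had a lower average in MYTHO-KD, 2 a higher one and 1 an equal one, with a median log2 difference of -0.225. The share with a lower average over all probe sets was 51.4%. *Mki67*, which codes for the proliferation marker Ki-67, was at 5.55 ± 0.53 in MYTHO-KD and 5.75 ± 0.37 in scramble. Its log2 difference of -0.20 was smaller than either SD, and its 95% interval of -0.79 to 0.39 corresponds to 0.579-fold to 1.31-fold (adjusted p = 0.838, limma). *Top2a*, the topoisomerase that untangles sister chromatids, was at 5.96 ± 0.25 and 6.22 ± 0.18, an interval from 0.637-fold to 1.09-fold. The mitotic kinase *Cdk1* was flagged as not expressed in either group, with averages of 3.45 ± 0.18 and 3.71 ± 0.21.

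Among the cyclins of mitosis, *Ccnb2* (cyclin B2, chr9:70407689-70421554) was the only one with an unadjusted p under 0.05. It was at 6.10 ± 0.23 in MYTHO-KD and 6.51 ± 0.07 in scramble, a log2 difference of -0.41 (95% interval -0.77 to -0.05, adjusted p = 0.346, limma). *Ccnb1* showed a difference of the same size, 6.60 ± 0.23 against 7.0 ± 0.42 (-0.40), with an interval that took in 0 (-0.88 to 0.08), and *Ccna2* (cyclin A2) differed by -0.13. The spindle kinase *Aurka* was at 7.26 ± 0.42 and 7.71 ± 0.19 (-0.45, 95% interval -0.92 to 0.02, adjusted p = 0.438, limma). *Aurkb*, which acts at centromeres, had the opposite sign, at 5.84 ± 0.60 and 5.61 ± 0.28 (0.23). The checkpoint kinase *Bub1* had the lowest difference of the 36, -0.60, from 5.06 ± 0.35 to 4.46 ± 0.67, at a dim signal and with an interval from -1.26 to 0.06. For *Bub1b*, *Plk1*, *Cdc20* and *Birc5* (survivin) the differences lay between -0.25 and 0.00. *Foxm1*, the transcription factor of this programme, differed by 0.22 (4.92 ± 0.32 and 4.70 ± 0.31), on a probe set that also names *4933413G19Rik*.

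**Figure D3:**
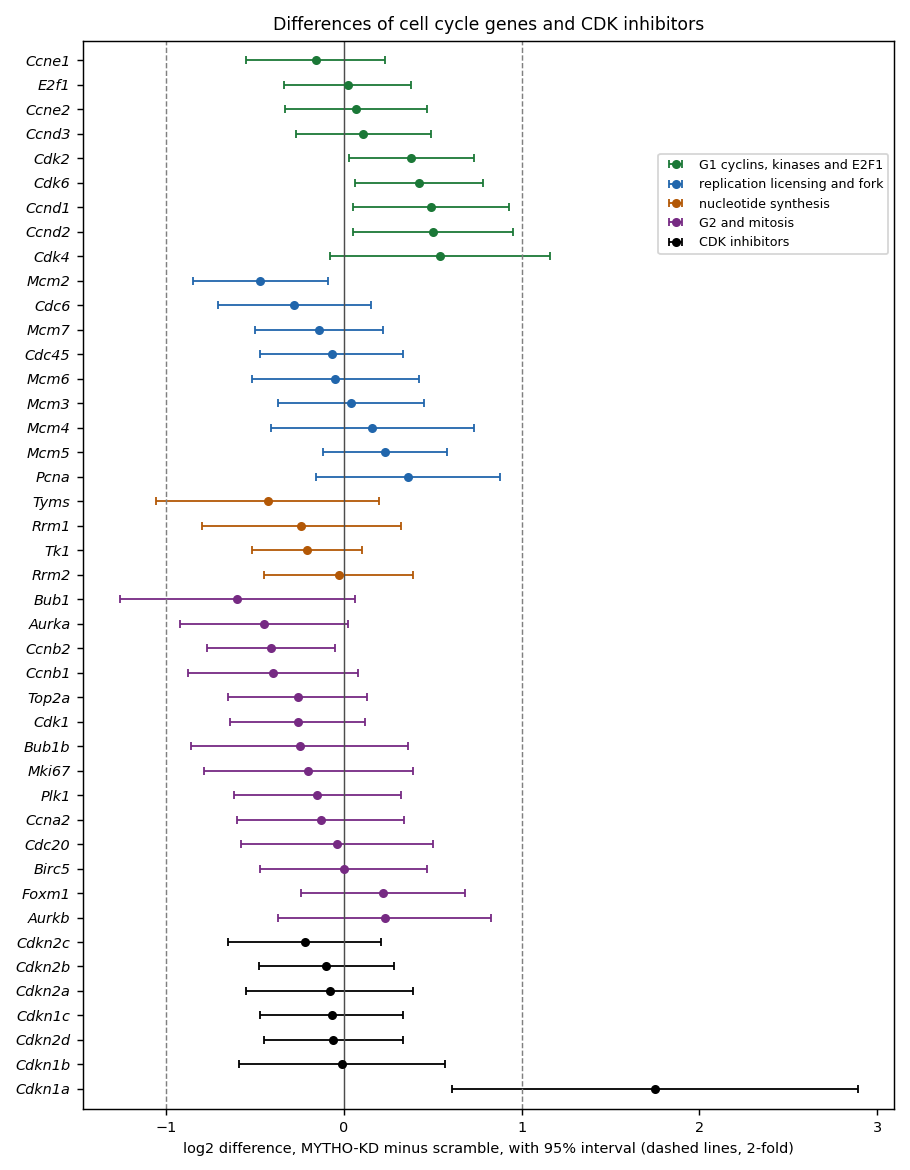
log2 difference of MYTHO-KD minus scramble (points, x axis) with its 95% interval from limma's moderated test (bars) for the 36 members by role and the 7 CDK inhibitors (black), with dashed lines at 2-fold. The 4 members whose intervals lie above 0 are all G1 genes, *Mcm2* and *Ccnb2* lie below 0, and *Cdkn1a* at 1.75 is the gene past the line for 2-fold.

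Of the 36 members, 13 had a mean of both averages under the 30th percentile of all probe sets (5.715, log2), a share to set beside the 29.9% of all probe sets, and 7 of these were mitotic genes. The software flagged 34 of the 36 as expressed in both groups, as it did 95.6% of all probe sets. The spread between muscles was larger in MYTHO-KD for 11 of the 14 mitotic genes and for 21 of all 36 members, against 48.1% of all probe sets. The median SD of the mitotic genes was 0.375 in MYTHO-KD and 0.31 in scramble. For replication genes it was the reverse, with a larger SD in MYTHO-KD for 3 of 9. The 40 further mitotic genes described below did not share the wider spread of the 14 mitotic members. Of these 40, 16 had a larger SD in MYTHO-KD, and their median SD was 0.25 in MYTHO-KD and 0.295 in scramble. In both mitotic lists together, 27 of 54 genes had a larger SD in MYTHO-KD. These SD counts were not tested.

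Beyond the members, 100 further cell cycle genes were read from lists of CDK inhibitors, of pocket proteins with E2F and MuvB subunits, of replication and of mitosis. A single one was called, a share near the 0.86% of all probe sets called higher. It was the CDK inhibitor gene *Cdkn1a* (chr17:29090979-29100722), a p53 target known to halt the cell cycle and to rise when myoblasts differentiate. In MYTHO-KD *Cdkn1a* rose to 10.73 ± 1.29, against 8.98 ± 0.58 in scramble, a log2 difference of 1.75 or 3.36-fold (95% interval 0.61 to 2.89, unadjusted p = 0.0059, adjusted p = 0.200, limma). Its SD in MYTHO-KD was the highest among these 100 genes, and with unequal variances its unadjusted p was 0.0661, so that the call was lost. The other 6 CDK inhibitors had differences between -0.22 (*Cdkn2c*) and -0.01 (*Cdkn1b*). *Cdkn2a*, the senescence-linked locus, was at 3.70 ± 0.33 and 3.78 ± 0.31, near the floor.

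The remaining lists gave 0 calls in limma's moderated test. Of the 18 pocket proteins, E2F factors and MuvB subunits, 9 were higher and 9 lower, with 1 higher and 1 lower at an unadjusted p under 0.05. These were *E2f2*, an activating E2F (log2 difference 0.64, adjusted p = 0.273, limma), and *Lin37*, a MuvB subunit (-0.39, adjusted p = 0.369, limma), while the retinoblastoma gene *Rb1* differed by -0.08. Of 35 further replication genes, 11 were higher and 24 lower by sign, where 46.9% of all probe sets were higher and 51.4% lower. At an unadjusted p under 0.05, 1 was higher and 3 lower. They were led by *Pole*, the catalytic subunit of a replicative polymerase (0.62, adjusted p = 0.247, limma), and *Orc5*, a subunit of the origin recognition complex (-0.58, adjusted p = 0.260, limma). Among 40 further mitotic genes, 17 were higher and 22 lower, with a median of -0.065, and again 1 was higher and 3 lower at that limit. The higher one was the kinetochore gene *Cenpf* (0.48, adjusted p = 0.415, limma), at a dim signal of 4.40 in MYTHO-KD and 3.92 in scramble. It was flagged as expressed in MYTHO-KD only. The lower ones were *Ttk*, *Spc25* and *Kif23*, with differences of -0.48, -0.41 and -0.39, and *Ttk* and *Spc25* were also dim. The largest differences of this list were above 0, those of *Sgo1* (0.64) and *Kif11* (0.53), neither with an unadjusted p under 0.05. The median of the 14 mitotic members was -0.225, and the difference between the lists was not tested. Over the 100 genes, 4 were higher and 7 lower at an unadjusted p under 0.05, beside the 6.48% and 5.52% of all probe sets.

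Markers of the cell types in whole muscle were read in the same groups, beside all probe sets, of which 46.9% were higher by sign and 0.86% were called higher. All 10 macrophage markers were higher in MYTHO-KD, 3 of them called, with a median log2 difference of 0.695, and their summed linear signal was 4990 against 2110 (ratio 2.37). Such a sum is weighted toward the brightest probe sets, here *Lyz2* and *Mrc1*, and for fibroblasts *Dcn*. *Cd68* was at 9.43 ± 0.88 and 6.90 ± 0.20 (2.53, adjusted p = 0.0182, limma). The other called macrophage genes were *Lyz2* (1.94, adjusted p = 0.0277, limma) and *C1qb* (1.27, adjusted p = 0.0754, limma). All 10 markers of fibro-adipogenic progenitors and fibroblasts were higher as well (median 0.685, ratio of summed signals 1.29), and 2 were called (*Lum* and *Col3a1*). The 8 endothelial markers were all higher too (median 0.355, 0 called, ratio 1.37). Of the 8 satellite cell and myoblast markers, 5 were higher, 2 lower and 1 equal at the top of the scale (median 0.125), and 2 were called. *Mymk*, the myoblast fusion gene listed by its older symbol *Tmem8c*, rose by 1.77 (adjusted p = 0.0749, limma). Embryonic myosin *Myh3* was called at 1.27 (7.73 ± 1.28 against 6.46 ± 0.63, adjusted p = 0.366, limma), and the call was lost without moderation, with unequal variances and under robust fitting with a trend. The satellite cell gene *Pax7* differed by 0.18 and *Myod1* by -0.40, neither with an unadjusted p under 0.05. Of 9 lymphocyte and 6 granulocyte markers, none had an unadjusted p under 0.05, and their medians were -0.17 and -0.24. Over both groups, averages ran from 3.89 to 7.82 for the lymphocyte markers and from 4.19 to 6.30 for the granulocyte markers. The part of these cells in the cell cycle values was not tested.

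**Figure D4:**
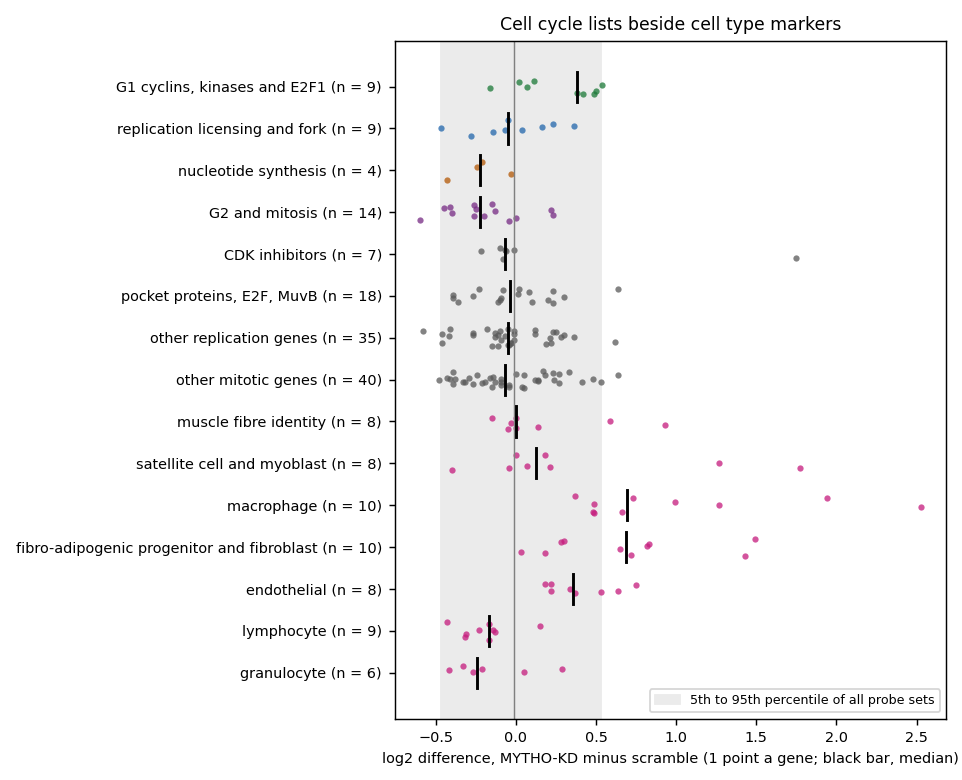
log2 difference of MYTHO-KD minus scramble for every gene of the 4 groups of members (coloured), of 4 further cell cycle lists (grey) and of 7 cell type marker lists (pink); 1 point stands for 1 gene, black bars are medians and the shaded band runs from the 5th to the 95th percentile of all probe sets (-0.47 to 0.53). The cell cycle medians lie between -0.225 and 0.38, below the macrophage (0.695) and fibroblast (0.685) medians. The highest of them, that of the G1 genes, lies above the endothelial (0.355), satellite cell (0.125), muscle fibre (0.0), lymphocyte (-0.17) and granulocyte (-0.24) medians. The muscle fibre median falls on *Acta1* and *Myh4*, which stand at the top of the scale in both groups and could show no difference.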

How the data were processed

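Total RNA of 8 GAS muscles was hybridized to Clariom S Mouse arrays. SST-RMA normalization was run by the authors in Transcriptome Analysis Console 4.0.1 at default parameters (the labels name RMA), and they deposited, per probe set, the average on the log2 scale and the SD of each group, with a flag for expression and with coordinates on mm10. These deposited log2 values are group values, given to 2 decimals, and the kind of average is not stated. The table also holds the authors' fold changes, p-values and false discovery rates, which were not used. It has 0 columns of single arrays that were left unused. SST-RMA stretches low signals, which affects the size of differences.

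The members and gene lists were chosen with earlier results of these data known. For a gene with more than 1 probe set, the brightest was used. All 195 listed genes were found, 3 through an older symbol. Variances of both groups were averaged (6 degrees of freedom), moderated with squeezeVar of limma 3.58.1 in R 4.3.3 (prior SD 0.284, prior degrees of freedom 5.85) and tested two-sided, with Benjamini-Hochberg adjustment over 22206 probe sets. The code was tested on simulated data. If the deposited averages are robust ones rather than plain means, p-values and intervals here may be too small. Named are all members, the target, and in each other list the genes called and some of the 3 with the largest differences. Of further genes, *Rb1*, *Pax7*, *Cdkn1b*, *Cdkn2a*, *Ttk*, *Spc25* and *Kif23* were chosen after their values were seen. *Acta1*, *Myh4*, *Myh8*, *Mrc1* and *Dcn* are named for their high signal. Arrays have no sequencing depth, and 4 arrays per group limit the precision. The labels do not say which muscles come from one mouse. Promoters are those of RefSeq on GRCm38.p6. Alternatives were other variance models, a filter on dim probe sets, other thresholds and probe sets that name 1 gene alone. Tables and figures were made with Python 3.11.15, pandas 2.3.3 and matplotlib 3.10.9.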

Additional observations from a re-analysis of the deposited data

How the results depend on the processing

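No member was called at 2-fold in any alternative run, nor at 1.5-fold, and none passed an adjusted p of 0.05, or of 0.1, a limit added after the data were seen. The number of members higher at an unadjusted p under 0.05 was 4, and it was 2 without moderation and 2 with unequal variances, with *Ccnd1* and *Ccnd2* no longer meeting the limit. Their unadjusted p-values were 0.0517 and 0.0537 without moderation and 0.0529 and 0.0542 with unequal variances. The lower count was 2, and 3 in both settings, where *Tk1* met the limit at 0.00258. With a trend and robust fitting *Cdk2* missed it at 0.0559. *Mcm2*, *Ccnb2* and *Cdk6* met it in every alternative. Among other cell cycle genes 1 was called higher, and 0 with unequal variances, where *Cdkn1a* was lost. Of 7 cell type markers called, 6 were called without moderation, with unequal variances and under robust fitting with a trend, where *Myh3* was lost. A filter on dim probe sets left 23 members, of which 21 had an interval inside 2-fold (33 of 36 without the filter) and 13 a larger SD in MYTHO-KD. The count of intervals inside 2-fold was 28 without moderation and 26 with unequal variances, and this measure was chosen after the data were seen. The median difference of the members stayed between -0.07 and -0.03. No paired analysis was possible because the table holds group averages and does not say which legs belong to one mouse, and for the same reason no muscle could be left out in turn and no other background correction or normalization could be tried.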
